A study of Drosophila melanogaster with 2 samples.

Results

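Peaks of schlank ChIP-seq were examined where they lay just upstream of protein-coding genes whose promoter faces 1 way. The peaks described were those of the thresholded set whose summit lay within 500 bp of protein-coding transcription start sites (TSSs) of 1 strand and upstream of the nearest of them. They numbered 707 of 2790 thresholded peaks (25.3%, 95% Wilson interval 23.8 to 27.0), and 667 genes had at least 1. They were compared with the 2605 pooled candidates in the same position that overlapped no thresholded peak, called the remaining candidates here, out of 26849 such candidates in all (9.70%, 9.35 to 10.1). The data came from whole Drosophila melanogaster embryos of pooled sex aged 0 to 24 h, from a transgenic line that stably carries schlank fused at its C terminus to GFP, in 2 biological replicates of this 1 group. Chromatin was sonicated to 200 to 800 bp. Each sample is labelled with an antibody to schlank and points to a control of its own, although its free text calls it an input control, and both were treated as schlank ChIP. All cell types of the embryo are mixed in each sample, so a peak in few cells and a weak peak in all cells cannot be told apart. Read depth is unknown, since the lists hold no read counts.

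schlank is the ceramide synthase of the fly, an enzyme of the endoplasmic reticulum that also carries a homeodomain, the DNA-binding fold of many developmental regulators. The core promoter is the short stretch around a TSS where RNA polymerase II and its general factors assemble, and in flies it often holds sequence elements such as the initiator, the TATA box or the TCT element of ribosomal protein genes. Upstream of it lies a region that is commonly free of nucleosomes, where elements such as the DRE, bound by the factor DREF, or GAGA repeats, bound by Trl, are found. At a single-strand promoter the nearby TSSs face 1 way, so a summit can be placed upstream or downstream of the nearest of them. Many genes have several TSSs, and a summit upstream of an internal one lies downstream of the first.

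The sequences below come from under strong peaks, from under strong peaks at ribosomal protein genes, and from under peaks that hold each of 4 promoter elements. They are examples, and the results on position and base composition below were computed over all the peaks. Each is read from the NCBI Release 6 genome on the strand of the gene, from 60 bases before the summit to 60 after it or to the last base before the TSS. Some stronger peaks have no sequence printed, because of the arm they lie on or because the stretch overlaps a UTR, and for the 4 elements the printed stretch had to hold the match. Capitals mark matches, on either strand, to the sequences searched near summits. CG14100, Ugalt, ph-p and amon had the highest signals among the peaks printed (chr3L:19590556-19590676, minus strand; chrX:2703853-2703953, minus; chrX:2137286-2137406, minus; chr3R:26714310-26714430, minus).
CG14100: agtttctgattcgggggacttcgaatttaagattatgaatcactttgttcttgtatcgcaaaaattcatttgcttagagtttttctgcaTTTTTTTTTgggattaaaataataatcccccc
Ugalt: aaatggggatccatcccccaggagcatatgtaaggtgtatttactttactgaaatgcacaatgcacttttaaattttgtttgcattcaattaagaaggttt
ph-p: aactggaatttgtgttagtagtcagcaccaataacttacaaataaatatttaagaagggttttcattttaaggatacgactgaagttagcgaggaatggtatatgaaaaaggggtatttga
amon: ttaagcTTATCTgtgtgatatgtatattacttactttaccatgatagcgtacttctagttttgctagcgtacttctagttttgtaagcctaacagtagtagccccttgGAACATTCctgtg
RpS28b, RpL23A, RpL8 and RpS10b had the highest signals among those printed at ribosomal protein genes (chrX:9554539-9554622, plus strand; chr3L:1668671-1668791, minus; chr3L:2587385-2587455, plus; chrX:19597958-19598030, plus).
RpS28b: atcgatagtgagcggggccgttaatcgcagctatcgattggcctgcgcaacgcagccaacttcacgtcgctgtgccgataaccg
RpL23A: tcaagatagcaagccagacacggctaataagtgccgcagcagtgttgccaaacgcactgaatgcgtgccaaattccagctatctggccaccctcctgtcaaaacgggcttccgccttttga
RpL8: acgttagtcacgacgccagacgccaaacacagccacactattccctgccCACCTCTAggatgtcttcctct
RpS10b: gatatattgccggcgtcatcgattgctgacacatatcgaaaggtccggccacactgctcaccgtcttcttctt
RpL27 (chr3R:25685052-25685139, minus) holds the DRE, CG1907 (chr3R:29618863-29618983, plus) the GAGA repeat, larp (chr3R:28326546-28326666, minus) the forkhead sequence, and Regnase-1 (chr3R:20036095-20036215, minus) motif 7, an element of fly core promoters.
RpL27: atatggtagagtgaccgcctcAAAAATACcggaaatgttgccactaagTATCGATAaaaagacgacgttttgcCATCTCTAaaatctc
CG1907: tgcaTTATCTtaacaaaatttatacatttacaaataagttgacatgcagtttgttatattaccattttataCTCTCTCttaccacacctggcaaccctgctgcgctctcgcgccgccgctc
larp: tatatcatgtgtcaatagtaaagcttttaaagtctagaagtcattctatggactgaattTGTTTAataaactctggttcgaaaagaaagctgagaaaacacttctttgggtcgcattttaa
Regnase-1: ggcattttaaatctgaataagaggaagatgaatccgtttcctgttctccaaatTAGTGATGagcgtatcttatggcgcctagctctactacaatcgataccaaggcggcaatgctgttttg
The printed stretches of Ugalt and ph-p had no match, and that of CG14100 held the A tract alone. The GC content of the stretches was 32.2% for CG14100, 34.7% for Ugalt, 32.2% for ph-p and 37.2% for amon. Those of RpS28b, RpL23A, RpL8 and RpS10b had 58.3%, 52.9%, 54.9% and 50.7%. Several stretches were cut at the TSS. In the 201 bp centred on the summit the gap was smaller. There CG14100, Ugalt, ph-p and amon had 36.8%, 45.8%, 36.8% and 46.8%. RpS28b, RpL23A, RpL8 and RpS10b had 46.8%, 50.7%, 46.8% and 45.3%.

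Thresholded summits at single-strand promoters lay mostly upstream of the TSS. Of 931 such summits, 707 were upstream (75.9%, 73.1 to 78.6), against 2605 of 5178 remaining candidates (50.3%, 48.9 to 51.7). The share was 79.9% when the strongest candidates of replicate 1 alone were used and 72.6% with those of replicate 2 alone. Over all candidates of the pooled list, 9.30% were thresholded peaks.

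**Figure D1:**
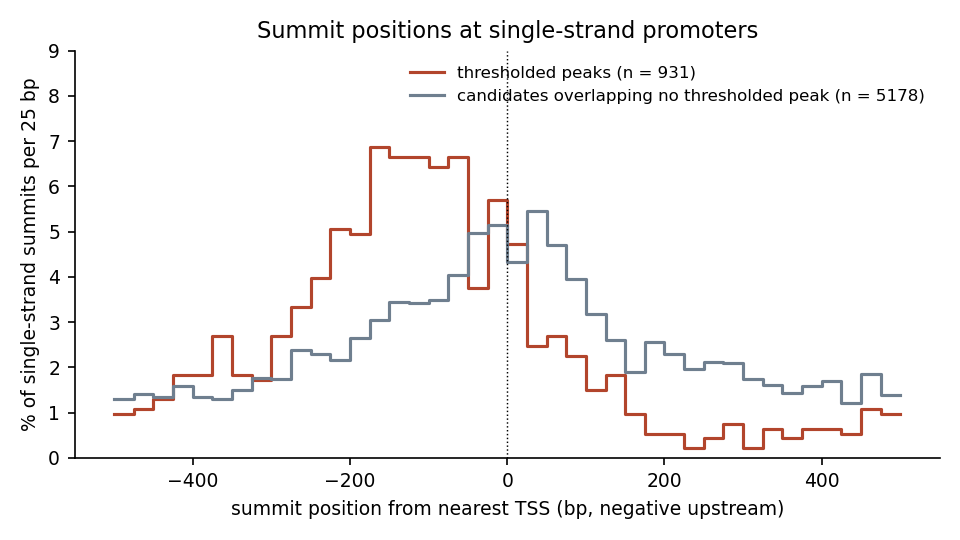
Position of single-strand promoter summits from the nearest TSS in bins of 25 bp (x axis, bp, negative upstream; y axis, percent of the summits of each set). Thresholded peaks (931, red line) lie above the remaining candidates (5178, grey line) in most bins from about 425 bp to 50 bp upstream. The order of the lines changes between 50 bp upstream and about 25 bp downstream, and beyond that thresholded peaks lie below.

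The median distance upstream was 158 bp for the peaks (quartiles 86 and 252) and 157 bp for the remaining candidates (65 and 287), yet the spread differed. Fewer of the peaks had a summit within 50 bp of the TSS, 12.4% (10.2 to 15.1) against 20.1% (18.6 to 21.7). More lay 151 to 200 bp away, 15.6% (13.1 to 18.4) against 11.3% (10.2 to 12.6). Fewer lay 401 to 500 bp away, 6.79% (5.16 to 8.89) against 11.2% (10.1 to 12.5). The median signal of the peaks was 168 within 50 bp and 227 at 201 to 250 bp. The signal is the authors' own strength of each peak. Its scale is not stated, and it is read within a list.

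Peaks at the edges of the selection were as follows. The weakest peaks were at FucTA, a fucosyltransferase gene, MYPT-75D and Zw, the gene of glucose-6-phosphate dehydrogenase, each with a signal of 121. Just under the threshold, Hph and sfl had a signal of 121 and EMC2B 120. Closest to the TSS lay the summits of RpL7A at 2 bp, CG9795 at 3 bp and InR, the insulin receptor gene, at 5 bp. Just on the downstream side were CG8306 at 0 bp and RpL36A and CG5335 at 1 bp. CG13894 at 498 bp and jar and CG3348 at 493 bp lay just inside the window, and GstD1 at 506 bp and CG5973 at 513 bp just outside it. The tagged gene schlank and the lipase gene Lip3 each had 1 pooled candidate nearest to their TSS, on the downstream side, and mag had none, so none of these genes had an upstream peak.

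The peaks were found again in both replicates far more often than the remaining candidates. A candidate summit lay within 200 bp in both replicates for 676 of 707 (95.6%, 93.8 to 96.9), against 1060 of 2605 remaining candidates (40.7%, 38.8 to 42.6). Over all thresholded peaks the share was 94.6%. The thresholded set was made from both replicates, so these shares describe it and do not test it. Replicate 2 held a candidate for 99.4% and replicate 1 for 96.2%, and 27 peaks were seen in replicate 2 alone and 4, at gw, Ars2, sm and CG12643, in replicate 1 alone. These 4 genes are named because of their small number.

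Among the 2790 strongest candidates of replicate 1, a summit was within 200 bp of 75.4% of the peaks, against 71.7% of all thresholded peaks. For replicate 2 the shares were 88.8% and 86.7%. The summits of both replicates were a median of 28 bp apart (quartiles 11 and 57) at the peaks and 57 bp apart (18 and 114) at the remaining candidates. The replicate summit lay upstream of the same TSS in 666 of 680 cases in replicate 1 (97.9%) and in 686 of 703 in replicate 2 (97.6%).

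Signal was moderately correlated between the replicates, as a description over peaks of the same libraries. Spearman's rho was 0.52 and Pearson's r of log2 signal 0.62 over the 676 peaks seen in both. Over the 1060 remaining candidates seen in both, which span a narrower range of signal, they were 0.10 and 0.08. In 4 equal groups from the weakest to the strongest pooled signal, 89.8%, 94.4%, 98.3% and 100% of the peaks were seen in both replicates. The pooled signal was close to the sum of the replicate signals, so this rise is partly built in and does not test their agreement.

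**Figure D2:**
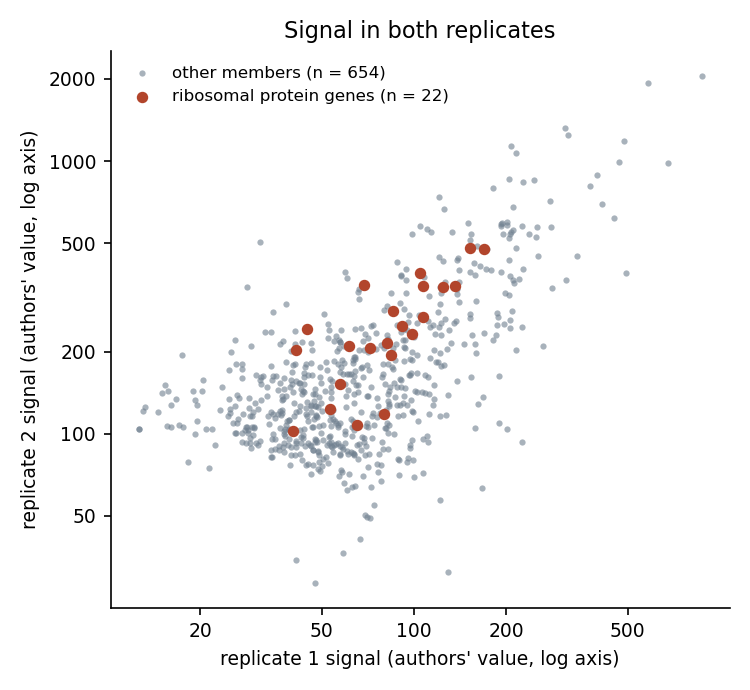
Signal of each peak in replicate 1 (x axis) and replicate 2 (y axis), in the authors' units on log axes, for the 676 peaks with a candidate in both. The 22 peaks at ribosomal protein genes (red) lie within the cloud of the others (grey), and CG14100 is the highest point in both, at 872 and 2048.

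The strongest peaks lay at genes of varied function. CG14100, whose protein is uncharacterized, had the highest pooled signal of all thresholded peaks, 2915, with 872 in replicate 1 and 2048 in replicate 2, 92 bp from the TSS. Ugalt, a transporter of UDP-galactose into the Golgi, had 2506 pooled, with 581 and 1935, at 41 bp. CG14100 ranked 1 in both replicate lists, and Ugalt 5 in replicate 1 and 2 in replicate 2. ph-p, a Polycomb group subunit, had 1668 (485 and 1188) at 491 bp, inside its own gene. mRpL41, a protein of the mitochondrial ribosome, had 1656 (679 and 981) at 128 bp.

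eIF6, a factor that keeps the large ribosomal subunit from joining the small one too early, had a signal of 1558 (319 and 1245) at 109 bp, within an intron of another gene. px, a wing vein gene, had 1458 (468 and 991), and amon, a proprotein convertase gene, 1356 (208 and 1135) at 211 bp. Atf3, a bZIP transcription factor, had 1278 (216 and 1073) at 233 bp, and Alg3, a mannosyltransferase of N-glycan assembly, 1266 (397 and 889) at 65 bp. Replicate 2 had the higher value for each, as it did in median, 142 against 63.5, but the lists are not on one stated scale.

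Signals between 803 and 1617 were also found at CG1888 (1617), the glycolytic gene Gapdh2 (1190), CG1635 (1111), the RNA-binding protein gene larp (1092), MFS10 (1063), CG18549 (1061) and the Hsp90 gene Hsp83 (1054). CG31145 had 987, moody, a receptor of the glial blood-brain barrier, 966, Ptpmeg2, a tyrosine phosphatase, 897, and CG7737 881. Fkbp14 had 879, the HMG-box factor Sox14 856, the kinase gene gish 832, CG10165 808 and PAN3, of the deadenylation machinery, 803. Fkbp14 was the exception among the 25 strongest in having the higher signal in replicate 1, 494 against 387. The 25 strongest lay a median of 159 bp from the TSS, with 1 of them within 50 bp.

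Some genes carried several peaks. Rtnl1, the reticulon of endoplasmic reticulum tubules, had 4, with signals of 661, 544, 189 and 176. Ptpmeg2 had 3, with 897, 429 and 236. The phosphodiesterase gene dnc had 3, with 670, 280 and 273, each 283 to 341 bp from a TSS. spi, the EGF receptor ligand, had 3, with 382, 197 and 193, and brwl had 3, with 503, 336 and 175. At spi and at brwl a pair of the summits lay upstream of the same TSS. At brwl a pair of summits shared 1 candidate of replicate 1, with a signal of 158.

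Cytoplasmic ribosomal protein genes, which encode the proteins of the main ribosome of the cell, had a peak in 22 of 28 cases, close to the TSS. Over all genes with an upstream candidate at a single-strand promoter, 24.3% had a thresholded one (667 of 2742). For the ribosomal protein genes the share was 78.6% (60.5 to 89.8). Of the 90 such genes annotated, 30 were nearest to a thresholded peak with TSSs of both strands nearby and 13 to a downstream one. Peaks at these genes were thus not particular to the upstream class. All 22 peaks were seen in both replicates. These genes were known to be well represented in these data, and the list is not independent evidence.

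The summits at ribosomal protein genes lay a median of 27 bp from the TSS (2 to 77 bp), against 163 bp over the other 685 peaks (3 to 498 bp). Of the 22, 18 lay within 50 bp, where they made up 20.5% of 88 peaks, and 0 of 497 peaks beyond 100 bp were theirs. The nearest TSS was an internal one at 6 of the 22, RpL30 and RpL7A among them, where the summit lay inside the gene. RpS28b had a signal of 639, with 169 in replicate 1 and 475 in replicate 2, at 24 bp. RpL23A had 635 (153 and 480) at 77 bp, RpL8 488 (136 and 349) at 11 bp and RpL30 484 (105 and 388) at 7 bp. The lowest, RpL10, had 143 (40.3 and 102) at 9 bp. The median signal was 311 against 196 over the other peaks, and their range, 143 to 639, lay within that of the others, 121 to 2915.

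**Figure D3:**
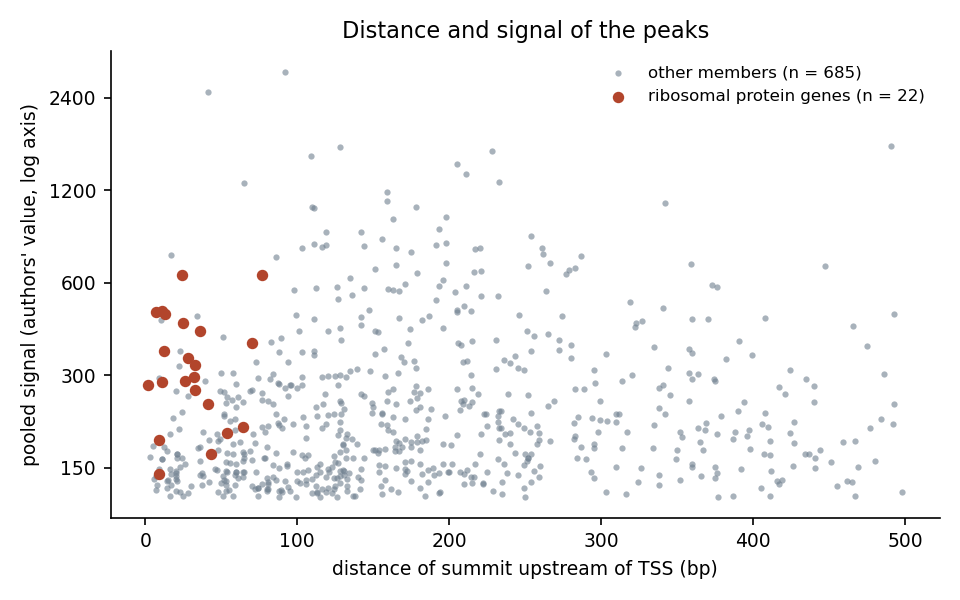
Pooled signal of each of the 707 peaks (y axis, the authors' units, log axis) against the distance of its summit from the TSS (x axis, bp). The 22 peaks at ribosomal protein genes (red) lie between 2 and 77 bp, and the 685 others (grey) between 3 and 498 bp.

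Base composition and core promoter elements at these genes also differed from the rest, most of which lay farther from the TSS. The 201 bp centred on the summit had a mean GC content of 44.9% ± 4.88 (SD over 22 peaks) at ribosomal protein genes and 38.1% ± 7.40 over the other 685. The TCT element, TCTTT between 5 bp before and 10 bp after the TSS on the gene strand, was found at 12 of 22 (54.5%, 34.7 to 73.1) and at 10 of 685 others (1.46%, 0.795 to 2.67). The initiator TCAGT in the same window was at 0 of 22 and 144 of 685 (21.0%). The DRE was near 4 of 22 (18.2%, 7.31 to 38.5) and 26 of 685 (3.80%, 2.60 to 5.50). Distance was not held equal in these comparisons. Over all 88 peaks within 50 bp of the TSS, 18 of them at ribosomal protein genes, mean GC content was 43.2% ± 6.35. Of those 88, 13 had the DRE (14.8%), 4 the initiator (4.55%) and 10 the TCT element (11.4%). Gene list and nearness to the TSS therefore cannot be told apart for GC content and the DRE. These splits were made after the values of the list had been seen.

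Among the 8 translation factor genes with a peak, of 16 with a candidate (50%, 28.0 to 72.0), the median distance was 60 bp. eEF2, the elongation factor of translocation, had a pooled signal of 360 at 23 bp and eEF1alpha1, which delivers aminoacyl-tRNA, 267 (32.6 and 236) at 49 bp. eEF5 had 188 (34.3 and 157) at 9 bp.

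Other lists were short. Genes of RNA polymerase II, its general factors and Mediator had 4 of 5 (80.0%, 37.6 to 96.4), namely Polr2F, Taf4, MED4 and TfIIA-S, with signals of 185 to 224. Protein glycosylation genes had 5 of 8 (62.5%, 30.6 to 86.3), from Ugalt and Alg3 down to Pgant4, Pgant1 and Pgant3 with 136, 126 and 121. The lower bounds of these intervals lie above 24.3%, but with replicate 1 alone the shares were 28.6% and 36.4%. Translation factor genes had 30.8% with replicate 1 alone. The V-ATPase proton pump had 3 of 6, at Vha68-2, Vha16-1 and Vha13, and mitochondrial ribosomal protein genes 2 of 3, at mRpL41 and mRpL4. With replicate 1 alone the share for mitochondrial ribosomal protein genes was 16.7%, below that of all genes.

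**Figure D4:**
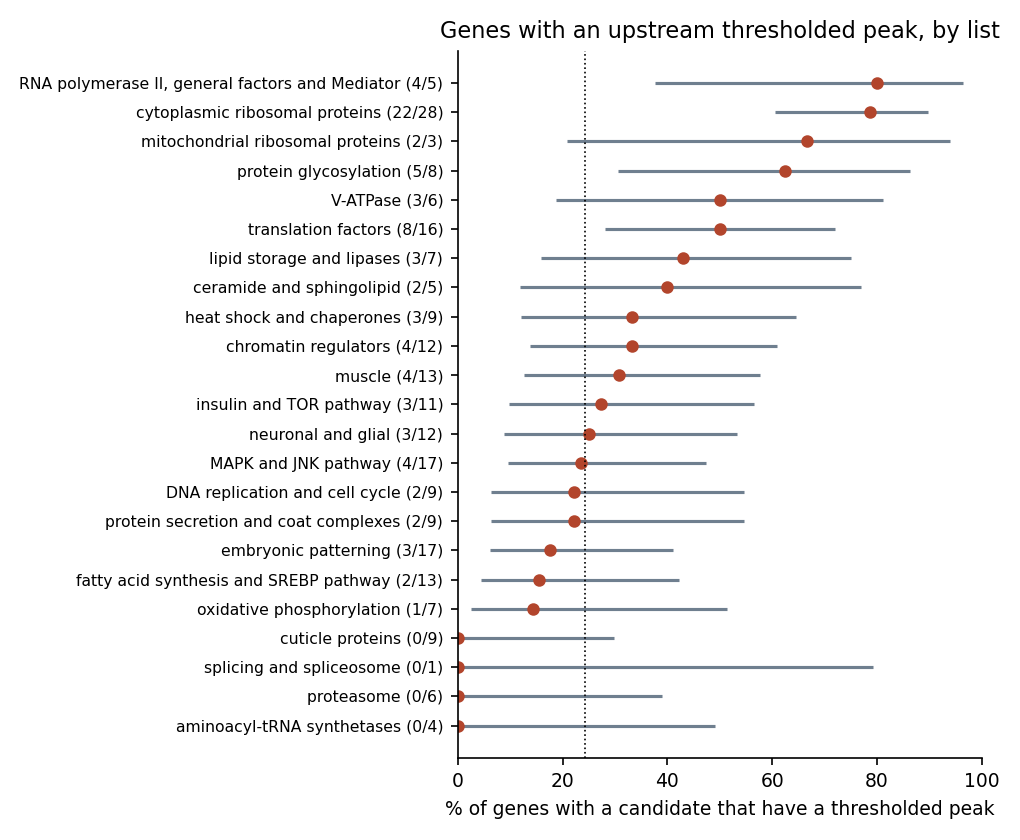
Share of genes with an upstream candidate that had a thresholded peak, by gene list (x axis, percent; points, shares; bars, 95% Wilson intervals; counts in brackets). The dotted line is the share over all genes, 24.3%, and the interval for cytoplasmic ribosomal proteins runs from 60.5% to 89.8%.

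Several lists had no upstream peak at a single-strand promoter. These were 0 of 9 cuticle protein genes (upper limit 29.9%), 0 of 6 proteasome genes (39.0%), 0 of 4 aminoacyl-tRNA synthetase genes (49.0%) and 0 of 1 splicing gene. At these sizes a share equal to that of all genes is inside each interval. Thresholded peaks with TSSs of both strands nearby were nearest to 4 aminoacyl-tRNA synthetase genes, 1 proteasome gene and 2 splicing genes. A downstream one was nearest to 1 splicing gene. Sphingolipid genes, the pathway of schlank itself, had 2 of 5, and 0 with replicate 1 alone. These were lace, a subunit of serine palmitoyltransferase, with 193 (31.5 and 162) at 71 bp, and ifc, the dihydroceramide desaturase, with 141 (30.9 and 91.2) at 51 bp. Lipid storage genes had 3 of 7, namely the lipin gene Lpin with 314 (122 and 197), Gpat4 with 237 (59.0 and 182) and Lip4 with 133 (56.8 and 70.0). Fatty acid and SREBP genes had 2 of 13, Baldspot and eas.

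For developmental genes and the other lists given here, the intervals held the share of all genes, 24.3%. They were wide, at 6.19% to 41.0% for patterning genes and 12.7% to 57.6% for muscle genes, so closeness to that share is not shown. Patterning genes had 3 of 17, the corepressor gro with 530, the limb gene Dll with 237 and the heart gene tin with 146. Chromatin regulators had 4 of 12, muscle genes 4 of 13, neuronal and glial genes 3 of 12, insulin and TOR genes 3 of 11, MAPK and JNK genes 4 of 17, and DNA replication and cell cycle genes 2 of 9. Genes of protein secretion and coat complexes had 2 of 9 and those of oxidative phosphorylation 1 of 7. The neuronal RNA-binding gene elav had 777 (250 and 526) at 261 bp. The titin-like gene sls had 361 (102 and 254) at 254 bp and the giant nesprin gene Msp300 496 (122 and 345) at 341 bp. The 5 peaks at muscle genes lay 254 to 410 bp from their TSSs. Heat shock and chaperone genes had 3 of 9, Hsp83, Hsp27 with 549 (153 and 393) and Hsp26 with 128 (60.5 and 62.4).

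The sequence under the peaks was AT-rich. The mean GC content of the 201 bp centred on the summit was 38.3% ± 7.43 (SD over 707 peaks) and 42.2% ± 8.41 over the 2605 remaining candidates, a difference of -3.89 percentage points. It was -2.83 with replicate 1 alone and -4.12 with replicate 2 alone. Summits near the TSS were richer in GC in both sets, at 43.2% and 45.1% within 50 bp, and at 36.1% and 39.8% 201 to 250 bp away. Thresholded peaks were selected on signal, and GC content moved with it inside the set too, from 39.9% in the weakest of these 4 groups to 37.1% in the strongest.

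Around the TSS itself the difference depended on position. From 220 to 201 bp upstream, mean GC content was 34.7% at genes with a peak and 38.9% at genes with a remaining candidate. From 60 to 41 bp upstream it was higher at the peaks, 49.4% against 46.8%, and from 500 to 481 bp upstream it was 38.7% against 38.6%. For comparison, downstream thresholded peaks at single-strand promoters had 43.5% within 100 bp of the summit and thresholded peaks with TSSs of both strands nearby 35.8%.

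**Figure D5:**
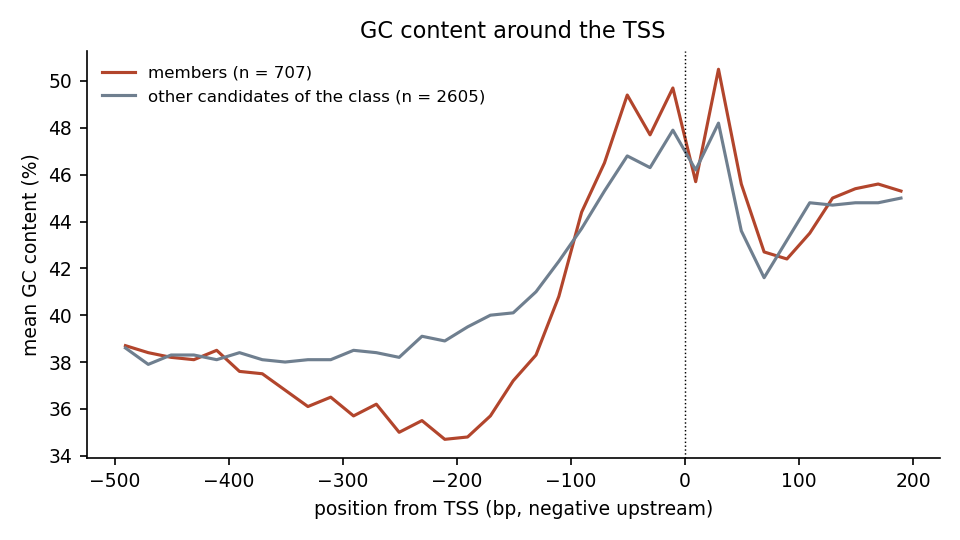
Mean GC content (y axis, percent) in bins of 20 bp against position from the TSS (x axis, bp, negative upstream), for the 707 peaks (red) and the 2605 remaining candidates (grey). The red line is lower from about 380 to 120 bp upstream and higher between about 100 bp upstream and the TSS.

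Of 19 sequences searched, 15 within 100 bp of the summit on both strands and 4 at the TSS on the gene strand, most had overlapping intervals in both sets. The forkhead sequence TAAACA was near 190 of 707 peaks (26.9%, 23.7 to 30.3) and 571 of 2605 remaining candidates (21.9%, 20.4 to 23.5). Over all thresholded peaks its share was 29.8%, so it was not particular to the upstream ones. With the remaining candidates weighted to the GC content of the peaks, their share was 25.2%, within the interval of the peaks. For all 19253 protein-coding TSSs, the 201 bp that end at the TSS on its upstream side were searched, and 22.1% held the forkhead sequence. Shares of all TSSs given below for sequences near summits use that same stretch, which is placed otherwise than the one at the peaks. The CA repeat CACACACA was near 22 peaks (3.11%, 2.06 to 4.67) and 172 remaining candidates (6.60%, 5.71 to 7.62), and the weighted share was 4.70%. It was near 4.80% of all thresholded peaks. With replicate 1 alone the difference of the CA repeat was -0.94 percentage points, against -3.49 with both. The strongest peak with it, at TRAM, had a signal of 728 (204 and 523). These were the sequences whose intervals did not overlap before weighting.

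The GAGA repeat GAGAGAG was near 8.49% (6.65 to 10.8) of the peaks and 7.02% (6.11 to 8.07) of the remaining candidates, or 5.27% of them at equal GC content. Its difference in share changed sign, to -0.92 percentage points, with replicate 1 alone. It was near 5.38% of all thresholded peaks and 6.19% of all TSSs. The DRE, TATCGATA, was near 4.24% (2.99 to 5.99) and 3.11% (2.51 to 3.85), and near 6.21% of all TSSs. In the 30 peaks that held a DRE it lay a median of 53 bp before the TSS (quartiles 74 and 36), and 14 had it within 30 bp of the summit. In the 81 remaining candidates with a DRE the median was 52 bp. Among peaks with a summit within 50 bp of the TSS, 13 of 88 held it (14.8%, 8.84 to 23.7), against 17 of 619 farther away (2.75%, 1.72 to 4.35). Summits that near the TSS have the usual place of the DRE inside their window by construction. Motif 7, CANCNCTA, was near 12.0% (9.83 to 14.6) and 9.90% (8.82 to 11.1). It was near 24 of those 88 (27.3%, 19.1 to 37.4) and 61 of the 619 (9.85%, 7.75 to 12.5). Of the 88, 18 were at ribosomal protein genes.

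Sequences of the kind read by homeodomains were compared next. TAATTA was near 13.7% (11.4 to 16.5) of the peaks and 11.1% (9.94 to 12.4) of the remaining candidates, or 13.9% at equal GC content. It was near 14.6% of all thresholded peaks and 14.1% of all TSSs. TAATGA was near 11.7% of each, and 13.7% of the remaining candidates at equal GC content. A match to the Zelda sequence CAGGTAG, which marks early embryonic enhancers, was near 3 peaks (0.424%, 0.144 to 1.24) and 28 remaining candidates (1.07%, 0.745 to 1.55), the strongest of the 3 being at Dph1, an enzyme gene of diphthamide synthesis, with 207 (17.4 and 194). The initiator TCAGT was at the TSS of 20.4% (17.6 to 23.5) of the peaks and 17.8% (16.4 to 19.3) of the remaining candidates. At equal GC content the remaining candidates had 15.9%, below the interval of the peaks. In the same window it was at 12.3% of all TSSs. The TATA box TATAAA, between 45 and 15 bp before the TSS, was at 4.53% (3.22 to 6.32) and 6.45% (5.57 to 7.46). At equal GC content the remaining candidates had 6.82%, above the interval of the peaks, and all TSSs had 7.77%. The weighted shares have no interval of their own. Motif 1, GGTCACAC, was near 2.97% and 2.50%, motif 6, GTATNTTT, near 8.06% and 8.68%, and the E-boxes CACGTG and CAGCTG near 3.25% and 2.53% and near 10.7% and 12.2%. The GATA sequence AGATAA was near 12.4% and 13.6%, the heat shock element GAANNTTC near 4.24% and 5.80%, the A tract AAAAAAAA near 9.90% and 8.83%, and the downstream promoter element GGACG, 20 to 40 bp after the TSS, at 4.24% and 3.61%. A match is a description of letters and not of binding.

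Few of the peaks lay in another coding gene and outside their own. Of 707, 376 were between genes (53.2%, 49.5 to 56.8) and 265 inside the same gene, upstream of an internal TSS (37.5%, 34.0 to 41.1). Among the remaining candidates these shares were 50.7% (48.8 to 52.7) and 34.6% (32.8 to 36.5). With the first TSS of each gene alone, 481 summits were in the class in place of 707. Another coding gene held 42 peaks (5.94%, 4.42 to 7.93) and 304 remaining candidates (11.7%, 10.5 to 13.0). A summit inside its own gene was counted there alone, so any of these that also lay in another gene are not included. A coding exon of such a gene held 1 peak and 40 remaining candidates (0.141%, 0.0250 to 0.797, against 1.54%, 1.13 to 2.08), and its UTRs held 7 and 80.

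Peaks upstream of an internal TSS lay farther away than those upstream of the first TSS of a gene, a median of 181 bp (quartiles 103 and 296) against 142 bp (78 and 230). Among the remaining candidates the medians were 164 and 154 bp. The median signals of the peaks were 214 at internal and 188 at first TSSs, and those of the remaining candidates 55.2 and 51.3. Genes with 1 TSS made up 39.6% (36.1 to 43.3) of the peaks and 45.5% (43.5 to 47.4) of the remaining candidates. The X chromosome held 115 of the peaks (16.3%, 13.7 to 19.2) against 17.6% (16.2 to 19.1) of the remaining candidates, and chromosome 4 held 3.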

How the data were processed

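ChIP-seq peak lists of 2 biological replicates were used, all on assembly dm6, per the labels. The authors deposited 1 candidate list per replicate and 1 of both pooled, each of 30000 entries, and the optimal set of peaks after IDR, a method that ranks peaks by reproducibility between replicates, of 2790. No label or header used here names the aligner, the peak caller or the IDR cutoff. The deposited signal is the authors' strength per peak, read within a list. The −log10 q values that the authors deposited reached a maximum shared by many peaks and were not used. The deposited summit offset, in bp, was added to the start of the peak. Depth is unknown, so intervals cover counting of peaks or genes and not reads.

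Annotation was Ensembl 115 (BDGP 6.54) and sequence the NCBI Release 6 genome. No entry lay past the end of its arm. Classes, distances, GC content, sequence matches and gene list shares were computed from the summits. For gene lists the denominator was the genes with a peak or a remaining candidate. With 1 group and peaks that are not replicates, no p-value was computed. Shares have 95% Wilson intervals, and each replicate alone was an alternative (its 2790 strongest candidates taken as the set). The functions were tested on simulated data. Work was done in Python 3.11.15 with pandas 2.3.3, numpy 2.4.6, matplotlib 3.10.9 and scipy 1.17.1.

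The members, lists and sequences were chosen with earlier results of these data known. Genes named were schlank, Lip3 and mag, those of the 25 strongest peaks, those at the threshold, those with 3 or more peaks, up to 4 per list, and the strongest for each sequence searched. Sequences were printed where the stretch held no UTR, off arm 2R, and, for the 4 elements, where the printed stretch itself held the match. The split of peaks into ribosomal protein genes and others, the splits by distance and GC content, genes near the edges of the window, and other ribosomal protein and list genes beyond 4 were chosen after their values were seen. The name pattern for ribosomal protein genes was also narrowed then, with the counts of 28 and 22 unchanged.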

Additional observations from a re-analysis of the deposited data

How the results depend on the processing

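The differences in GC content, in X share and in location, and those of the forkhead sequence and the CA repeat, kept their sign under the alternatives run. The small difference in median distance and those of several other sequences did not. The share of thresholded summits in the class (25.3%) was 24.7% to 25% with either replicate alone, 28.5% with the stronger 50% of peaks, 23.9% and 27.8% with windows of 250 and 1000 bp and 26.1% with all annotated TSSs. For the remaining candidates (9.70%) it was 9.09% to 9.65%, and 7.82%, 13.3% and 10.5% with these windows and TSSs. The median distance of the peaks was 158.5 to 180 bp by replicate, 178 bp in the stronger 50%, and 113 and 209 bp with the windows, against 94 and 303 bp for the remaining candidates. With replicate 1 alone it was 180 against 183 bp, with all annotated TSSs 159 against 162 bp and with the first TSS of each gene 144 against 154 bp. Without ribosomal protein genes, an alternative added after the data were seen, it was 163 bp, and the GC difference -4.12. The GC difference was -2.83 to -4.12 by replicate and -5.35 within 50 bp of the summit. The X share differed by -1.52 to -1.38 points by replicate. Ribosomal protein genes with a peak were 80.0% with either replicate, 76.9% in the stronger 50%, and 85.0% and 65.2% with the windows, against 23.9% to 24.1%, 15.1%, 26.0% and 22% of all genes. The difference in share inside other coding genes was -7.20 to -5.74 by replicate and -3.25 and -9.56 with the windows, and that inside the same gene 3.22 to 6.47 by replicate and 0.67 and 6.57 with the windows. With summits within 100 bp, 90.8%, 98.0% and 89% of the peaks were found in replicate 1, replicate 2 and both, and in the stronger 50% 99.2% and 99.0% in replicate 1 and both. The cause of these shifts was not tested, beyond the wider or narrower windows taking in other summits by construction. No paired analysis was possible because there is 1 group and no test. Shares of short gene lists rest on few genes, and those of mitochondrial ribosomal protein and sphingolipid genes fell from above to below the share of all genes with replicate 1 alone.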

Other observations

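The share of signal from each replicate moved with base composition. The pooled signal was close to the sum of the replicate signals, with a median ratio of 1.00 (quartiles 0.982 and 1.02 over 676 peaks). Replicate 1 gave a median of 28.8% of that sum, and in 4 groups by GC content within 100 bp of the summit, from the lowest, 36.4%, 29.9%, 27.3% and 23.4%. At ribosomal protein genes it gave 26.7% (quartiles 23.3 and 28.4), and at the 8 peaks of translation factor genes 22%. The cause was not tested. The groups were formed after the values were seen.

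The 10 strongest peaks all lay upstream of genes on the minus strand, against 54.2% (50.5 to 57.8) of the 707 peaks, and 16 of the 25 strongest did. This was noticed in the ranking and is given as a value.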
